A study of Mus musculus with 4 samples.

Results

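The 9 genes described here encode FOXO and KLF transcription factors: Foxo1, Foxo3, Klf2, Klf3, Klf4, Klf6, Klf7, Klf10 and Klf13. Open chromatin at each of them was read from the ATAC-seq peak lists as every peak within the gene body or 20 kb on either side, using the GENCODE gene model on GRCm38 (mm10). Peaks of different libraries that overlapped by 1 bp were merged, which gave 105 regions at the 9 loci out of 272233 regions in the genome. The cells were Foxp3+ CD4+ regulatory T (Treg) cells from the lymph nodes (LNs) of unstimulated female C57BL/6 mice of 6 to 8 weeks of age, sorted as RFP+ cells at 50000 cells per library. There were 2 WT libraries and 2 Il2ra mut/mut libraries. Both genotypes carried the Foxp3 RFP reporter, so the controls were reporter mice and not plain C57BL/6 mice. The Il2ra mut/mut mice carry a germline point mutation in CD25, the α chain of the IL-2 receptor, that lowers the response to IL-2, and the altered receptor is therefore present in every cell that expresses CD25 and not in Treg cells alone. A point mutation leaves no trace in a list of peaks, so the genotype of each library could not be checked here.

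FOXO factors are forkhead proteins that bind DNA while they are in the nucleus and are moved out of it when phosphoinositide 3-kinase and AKT are active, as happens after antigen receptor, CD28 or IL-2 receptor signals. In resting T cells FOXO1 is known to maintain the genes of quiescence and homing, among them Klf2, Ccr7, S1pr1 and Il7r. KLF factors bind GC-rich and CACCC-type sequences through their zinc fingers, and KLF2 is known to act on S1pr1 and so on the exit of T cells from lymphoid organs.

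The regions that carry the results differed in sequence content, and a few of them are shown here, read from the GRCm38 genome on the plus strand. Capitals mark the short words that were searched on both strands: GTAAACA (a forkhead core), CCNCNCCC (a KLF-type CACCC or GC box) and TTCNNNGAA (the word bound by STAT5, the factor that IL-2 activates). The first set holds the summits of strong regions away from promoters, in intron sequence of Foxo3 and Klf13 and upstream of Klf6:
Foxo3 intron, chr10:42269282-42269482: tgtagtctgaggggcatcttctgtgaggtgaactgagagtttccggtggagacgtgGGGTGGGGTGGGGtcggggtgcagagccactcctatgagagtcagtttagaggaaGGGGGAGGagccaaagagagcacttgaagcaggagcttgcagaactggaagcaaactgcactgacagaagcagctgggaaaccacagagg
Klf13 intron, chr7:63930163-63930363: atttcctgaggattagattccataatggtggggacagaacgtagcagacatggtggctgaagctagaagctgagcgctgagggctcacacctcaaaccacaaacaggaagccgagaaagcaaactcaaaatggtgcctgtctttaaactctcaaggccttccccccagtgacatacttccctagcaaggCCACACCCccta
Klf6 upstream, chr13:5845726-5845926: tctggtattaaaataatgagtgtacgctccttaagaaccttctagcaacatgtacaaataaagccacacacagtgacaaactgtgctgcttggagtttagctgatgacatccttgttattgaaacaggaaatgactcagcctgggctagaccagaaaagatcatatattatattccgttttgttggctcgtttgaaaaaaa

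The second set holds regions that were called in both libraries of one genotype and in neither of the other, namely a region upstream of Klf2 that only WT libraries called, and a neighbouring pair in the Foxo1 intron of which one was called in WT and the other in Il2ra mut/mut libraries:
Klf2 upstream, WT, chr8:72303660-72303860: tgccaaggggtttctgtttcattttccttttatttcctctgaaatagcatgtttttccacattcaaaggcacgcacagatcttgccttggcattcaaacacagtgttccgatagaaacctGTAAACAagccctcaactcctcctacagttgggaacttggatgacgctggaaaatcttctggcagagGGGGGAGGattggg
Foxo1 intron, WT, chr3:52275176-52275276: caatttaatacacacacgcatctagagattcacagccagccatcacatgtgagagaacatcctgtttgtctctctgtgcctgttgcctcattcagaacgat
Foxo1 intron, Il2ra mut/mut, chr3:52274582-52274682: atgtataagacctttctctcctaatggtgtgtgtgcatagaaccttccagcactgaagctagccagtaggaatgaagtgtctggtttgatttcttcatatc

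The third set holds the region with the smallest p-value of the comparison, downstream of Klf6, and the region with the smallest p-value at Foxo1, upstream of the gene:
Klf6 downstream, chr13:5890132-5890332: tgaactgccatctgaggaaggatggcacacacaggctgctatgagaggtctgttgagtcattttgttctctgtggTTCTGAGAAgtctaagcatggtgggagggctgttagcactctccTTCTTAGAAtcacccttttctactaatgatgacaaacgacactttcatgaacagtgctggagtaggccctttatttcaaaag
Foxo1 upstream, chr3:52262653-52262853: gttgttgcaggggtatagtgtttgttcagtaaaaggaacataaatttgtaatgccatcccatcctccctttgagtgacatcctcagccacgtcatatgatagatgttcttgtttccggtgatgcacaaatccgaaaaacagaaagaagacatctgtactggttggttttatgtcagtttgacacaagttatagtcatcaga

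The last set holds promoter sequence, taken from RefSeq (GRCm38.p6) in the direction of transcription and cut before the first transcribed base. The table held 8 of the 9 promoters and not that of Klf10:
Klf2 promoter, chr8:72318812-72319032, plus strand: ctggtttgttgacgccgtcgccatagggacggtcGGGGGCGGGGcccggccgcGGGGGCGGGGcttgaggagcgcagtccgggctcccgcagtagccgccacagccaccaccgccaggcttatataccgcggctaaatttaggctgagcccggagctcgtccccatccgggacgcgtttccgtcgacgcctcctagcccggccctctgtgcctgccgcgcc
Klf13 promoter, chr7:63938916-63939165, minus strand: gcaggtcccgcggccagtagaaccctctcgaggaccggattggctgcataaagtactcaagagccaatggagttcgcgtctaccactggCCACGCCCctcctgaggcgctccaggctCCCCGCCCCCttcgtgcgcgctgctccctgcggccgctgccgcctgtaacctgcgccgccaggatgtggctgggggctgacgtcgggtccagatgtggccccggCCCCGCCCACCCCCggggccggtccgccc

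The peak lists held 112569 and 126761 peaks for the WT replicates against 122776 and 142732 peaks for the Il2ra mut/mut replicates. The total number of reads is not in these lists, so the total depth of each library is unknown. The fold enrichment given by MACS2 moved in whole reads, however, and the read count at each summit could be recovered from it. The median was 8 to 10 reads per library, and the weakest peak of a list had 5 or 6. The background of each library could be recovered in the same way. It was 0.974 and 0.979 reads in the WT replicates against 1.23 and 1.06 in the Il2ra mut/mut replicates. Read counts at the summit therefore rest on unlike backgrounds, and the fold enrichment takes these into account. Treg identity was checked on promoters: the start sites of Foxp3, Il2ra, Ikzf2, Ctla4, Cd4 and Cd3e lay in called regions in all 4 libraries, whereas none of 3 B cell, 3 myeloid and 2 NK cell markers had a called start site. Of the CD8 T cell markers Cd8a had none, while the start site of Cd8b1 was called in all 4 libraries with a fold enrichment of 8.61 and 10.6 in WT against 5.38 and 5.83 in Il2ra mut/mut Treg cells. The Foxp3 start site had 4.56 and 6.57 in WT against 5.83 and 5.35 in Il2ra mut/mut libraries. That of Cd4 had 8.11 and 10.1 against 6.28 and 5.35. Both were below Cd8b1 in both WT libraries and in Il2ra mut/mut replicate 2, and above it in Il2ra mut/mut replicate 1. A called start site thus does not measure how pure the cells were. Whether CD8 T cells contributed to any result below was not tested.

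All 9 start sites were open in all 4 libraries. Across the genome, 10833 of 21938 protein-coding genes (49.4%) had a start site in a region called in all 4 libraries. The regions over the 9 start sites stood between the 92.6th and the 100th percentile of their lists by −log10 p. The tallest belonged to Klf13, Klf7, Klf6 and Foxo3, whose promoters stood higher than those of 99.0%, 98.3%, 97.1% and 95.7% of these genes. Klf10 (92.3%) and Klf2 (88.3%) followed, while Klf4 (51.4%), Klf3 (47.2%) and Foxo1 (46.5%) were close to the middle.

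**Figure D1:**
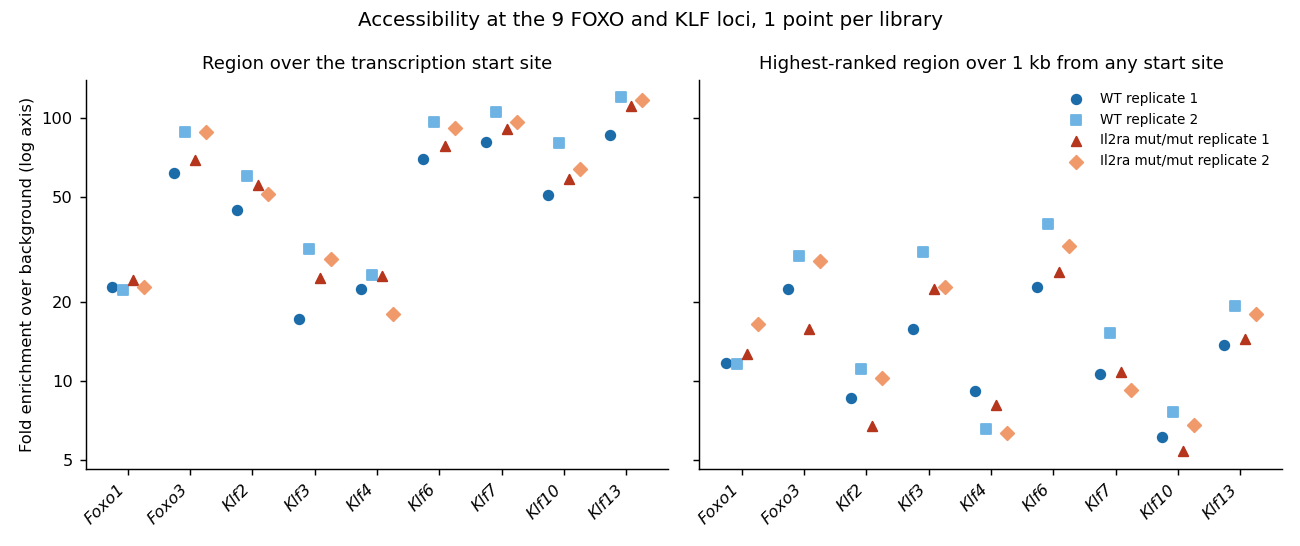
Fold enrichment over background (log axis) of the region over the start site (left) and of the region over 1 kb from any start site with the highest lowest percentile over the 4 libraries (right) at each of the 9 loci, with 1 point per library. Promoter values ranged from 17.2 at Klf3 to 120 at Klf13, and at the Foxo1 promoter all 4 libraries lay between 22.2 and 24.2.

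Among the FOXO genes, the Foxo1 promoter (chr3:52267184-52269693) had a fold enrichment of 22.8 in the first and 22.2 in the second WT replicate, against 24.2 and 22.8 in the Il2ra mut/mut replicates in the same order. The Foxo3 promoter (chr10:42276012-42278615) reached 61.8 and 88.9 in WT against 69.5 and 88.9 in Il2ra mut/mut Treg cells. The genotypes overlapped at Foxo3, since the replicates of 1 genotype differed more than the genotypes did, and at Foxo1 all 4 values were close together. FOXO1 is the main FOXO factor of T cells and FOXO3 a relative with shared binding sequences. The Foxo3 promoter was more enriched than the Foxo1 promoter in each of the 4 libraries.

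Among the KLF genes, the promoter of Klf2 (chr8:72318571-72320889), the trafficking and quiescence factor, had 44.6 and 60.1 in WT against 55.6 and 51.5 in Il2ra mut/mut libraries. Klf3, which encodes a repressor that recruits CtBP, had 17.2 and 31.8 in WT against 24.7 and 29.2 in Il2ra mut/mut libraries at its first promoter (chr5:64802444-64803957). It was the only member with a second called start site: that region (chr5:64811223-64812932) was far weaker, at 5.57 and 7.58 in WT against 8.97 and 7.29 in Il2ra mut/mut libraries. The deposited values of the 2 genotypes were interleaved at Klf2 and at both Klf3 promoters.

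The promoter of Klf4 (chr4:55532140-55533607), a factor associated with cell cycle arrest, had 22.3 and 25.3 in WT against 25.1 and 18.0 in Il2ra mut/mut libraries. Klf6 (chr13:5860560-5862823), an early-response gene in many cell types, had 69.9 and 96.5 in WT against 78.5 and 91.8 in Il2ra mut/mut libraries. Klf7 (chr1:64120918-64122622) had 81.1 and 106 in WT against 91.1 and 96.7 in Il2ra mut/mut libraries. At these 3 promoters too the genotypes were not apart.

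Klf10 (chr15:38298728-38301960), a gene induced by TGF-β, had 51.2 and 80.8 in WT against 58.8 and 64.1 in Il2ra mut/mut libraries. Klf13 (chr7:63935872-63940140), known as an activator of the chemokine gene Ccl5 in T cells, was the most enriched of the 9, with 86.1 and 120 in WT against 111 and 117 in Il2ra mut/mut libraries, or 169 to 247 reads at the summit. WT replicate 1 was the lowest library at 7 of the 9 promoters, and the genotypes are compared below on quantile-normalised values.

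Away from promoters the loci differed more in how many regions they had. Of the 105 regions, 39 (37.1%) were called in all 4 libraries, 11 in 3, 21 in 2 and 34 in 1. Over all regions of the genome 14.1% were called in all 4 libraries, and over the regions within 20 kb of any protein-coding gene 19.1%. The regions called in all 4 libraries comprised all 10 over a start site, 3 of 6 over another exon, 17 of 63 in introns, 4 of 15 upstream and 5 of 11 downstream of a member. Foxo1 had the most regions, 26 of which 7 were called in all 4 libraries, and Klf10 the fewest, 5 of which 4 were. Klf13 had 18 and 6, Klf7 15 and 3, Foxo3 11 and 5, Klf3 10 and 5, Klf6 8 and 4, Klf2 6 and 3, and Klf4 6 and 2. These counts depend on the length of the window, since the gene bodies ran from 2.62 kb at Klf2 to 94.9 kb at Foxo3. Per 10 kb of window, Foxo1 had the most regions (2.08), followed by Klf13 (1.94). Foxo3 had the fewest (0.815), below Klf10 (1.02), while Klf2 had 1.41.

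**Figure D2:**
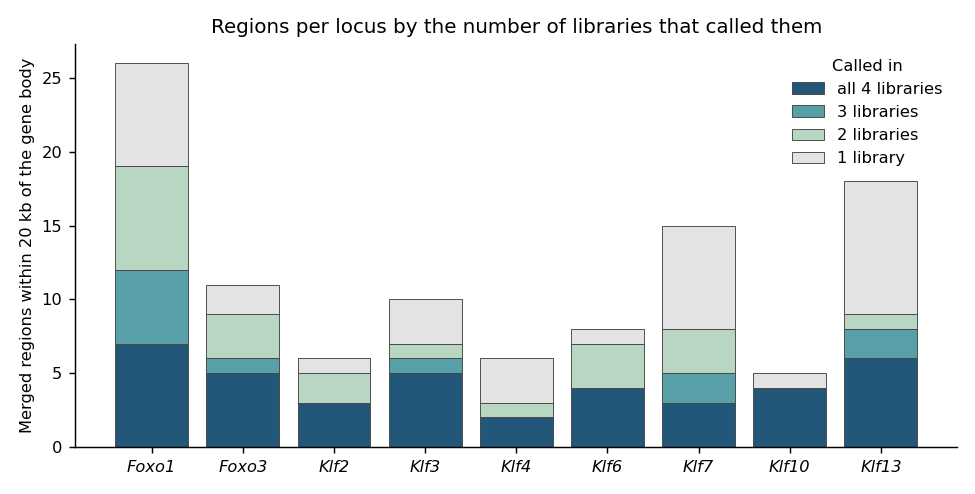
Number of merged regions at each locus (bar height), split by the number of libraries that called them. Regions seen in 1 library made up 9 of 18 at Klf13, 7 of 15 at Klf7 and 7 of 26 at Foxo1, whereas 4 of 5 regions at Klf10 were called in all 4 libraries.

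Regions over 1 kb from any annotated start site were ranked at each locus by the lowest of their percentiles over the 4 libraries. The strongest of all lay upstream of Klf6, 15.9 kb before its start (chr13:5845102-5846146). It had a fold enrichment of 22.8 and 39.4 in WT against 26.0 and 32.6 in Il2ra mut/mut Treg cells, above the Klf4 promoter in all 4 libraries and above the Foxo1 promoter in 3 of them. The Foxo3 intron region 7.37 kb into the gene (chr10:42269000-42269772) had 22.3 and 29.8 in WT against 15.7 and 28.7 in Il2ra mut/mut libraries. A Klf3 intron region 16.2 kb into the gene (chr5:64819380-64819867) had 15.7 and 30.8 in WT against 22.4 and 22.8 in Il2ra mut/mut libraries. All 3 were called in every library, with the genotypes intermixed. The Foxo3 and Klf3 regions were below the strongest promoter of every member in Il2ra mut/mut replicate 1, where the lowest of these was that of Foxo1 at 24.2. The Klf3 region was also below the strongest promoter of every member in WT replicate 1, where the lowest of these was that of Klf3 at 17.2.

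Weaker were the intron regions of Klf13 (chr7:63930040-63930552), with 13.7 and 19.2 in WT against 14.4 and 18.0 in Il2ra mut/mut libraries, and of Foxo1, 30.5 kb into the gene (chr3:52298528-52299171), with 11.7 and 11.6 in WT against 12.6 and 16.5 in Il2ra mut/mut libraries. The Klf7 intron region (chr1:64104586-64105030) had 10.6 and 15.2 in WT against 10.8 and 9.23 in Il2ra mut/mut libraries. A region that begins at the end of the last Klf2 exon (chr8:72321635-72323166) had 8.61 and 11.1 in WT against 6.73 and 10.2 in Il2ra mut/mut libraries. At Klf4 and Klf10 the distal regions so chosen lay 17.5 and 17.8 kb from their start sites, downstream of the gene, where the 4 libraries ranged from 6.32 to 9.12 and from 5.38 to 7.58. A second Klf10 region, 16.6 kb from the start site, had 4.05 and 9.09 in WT against 7.18 and 6.80 in Il2ra mut/mut libraries, and ranked lower because of WT replicate 1. The order of the distal regions was thus unlike that of the promoters, since Klf10 and Klf2 had tall promoters and weak distal regions.

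**Figure D3:**
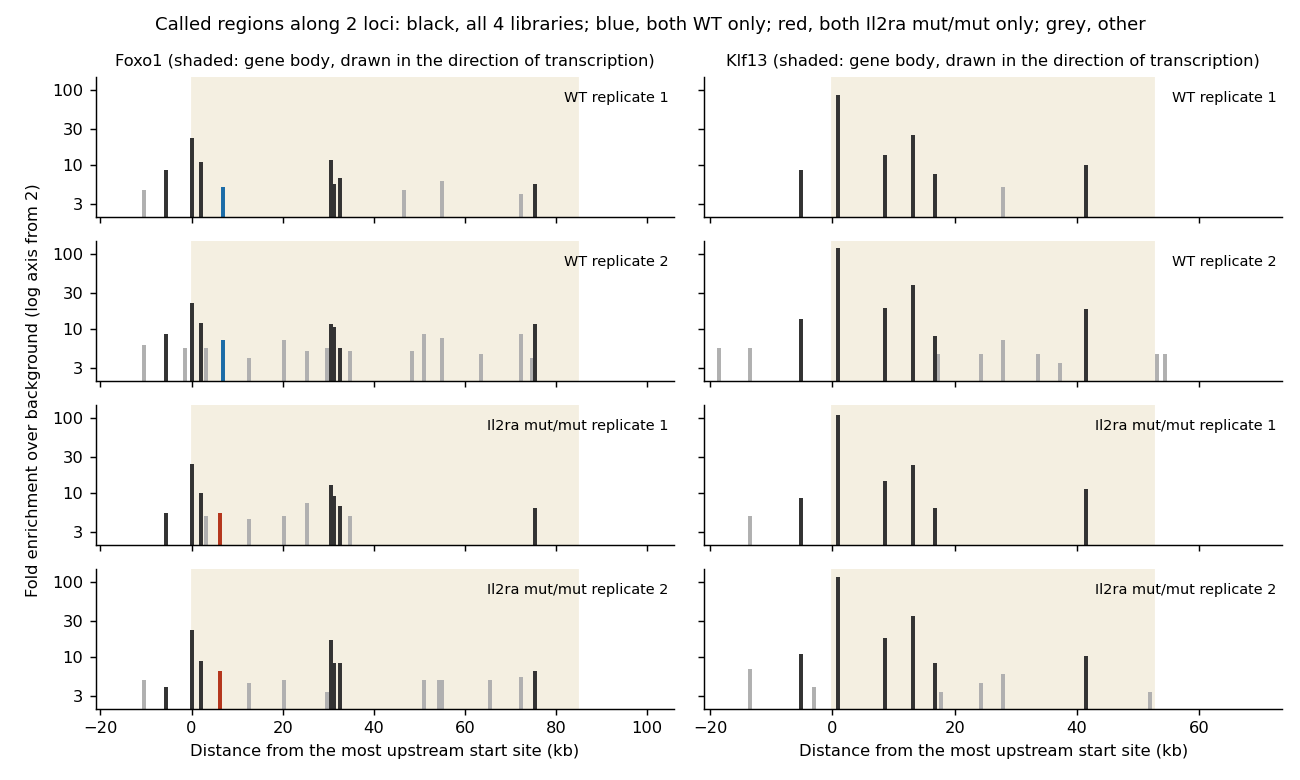
Called regions along Foxo1 (left) and Klf13 (right) in each library, at their distance from the most upstream start site in kb, with fold enrichment as the height on a log axis that starts at 2. Black regions were called in all 4 libraries (7 at Foxo1, 6 at Klf13), and the grey ones between them were called most often in WT replicate 2.

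The regions of Foxo1 were spread over the whole gene, 22 of 26 of them in introns, with 3 neighbouring regions called in all 4 libraries between 30.5 and 32.5 kb into the gene and another at 75.3 kb. At Klf13 the tall promoter was followed by an intron region 13.2 kb into the gene (chr7:63925245-63926099), 375 bp from the start site of a shorter Klf13 transcript, with 25.3 and 38.4 in WT against 23.3 and 35.0 in Il2ra mut/mut libraries. Other annotated genes lie in 8 of the 9 windows, among them Eps15l1 next to Klf2, and the Foxo3 window held no other gene. A region near such a neighbour cannot be assigned to 1 of the genes from its position.

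Whether the genotypes differed in accessibility was tested on the 39 regions called in all 4 libraries, with limma on quantile-normalised log2 fold enrichment and Benjamini-Hochberg adjustment over all 38426 such regions of the genome. None of the 39 passed an adjusted p of 0.05 in limma, and 3 had an unadjusted p under 0.05. Over the genome 0.427% of the regions passed as lower and 0.304% as higher in Il2ra mut/mut Treg cells, and 10.4% had an unadjusted p under 0.05. Of the 39 regions, 20 were higher and 19 lower in Il2ra mut/mut Treg cells, with a median log2 difference (Il2ra mut/mut minus WT) of 0.04 against 0.00 over all regions. The other 66 regions were missing from at least 1 list and were not tested in this fit. In bulk libraries, fewer cells with an open region and less opening per cell cannot be told apart.

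At the promoters the differences were small. The log2 differences of the 9 ranged from −0.10 at Klf4 to 0.23 at Klf3, with a median size of 0.08 against 0.20 over all tested regions, which also include far weaker ones. The difference at the Foxo1 promoter was 0.11 ± 0.21 (SE, 95% interval −0.30 to 0.52), at Foxo3 0.08 ± 0.12 (−0.16 to 0.31) and at Klf2 0.06 ± 0.14 (−0.22 to 0.34). At Klf7 it was 0.04 ± 0.11 (−0.18 to 0.26), at Klf6 0.05 ± 0.12 (−0.18 to 0.28) and at Klf10 −0.08 ± 0.13 (−0.34 to 0.18). The ends of each interval show how large a log2 difference in either direction the fit leaves room for at that promoter. They rest on a spread that limma largely shared across regions. Klf13 had the smallest p-value of the promoters, with a log2 difference of 0.20 ± 0.10 (limma adjusted p = 0.499), and both Il2ra mut/mut values lay above both WT values after normalisation.

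**Figure D4:**
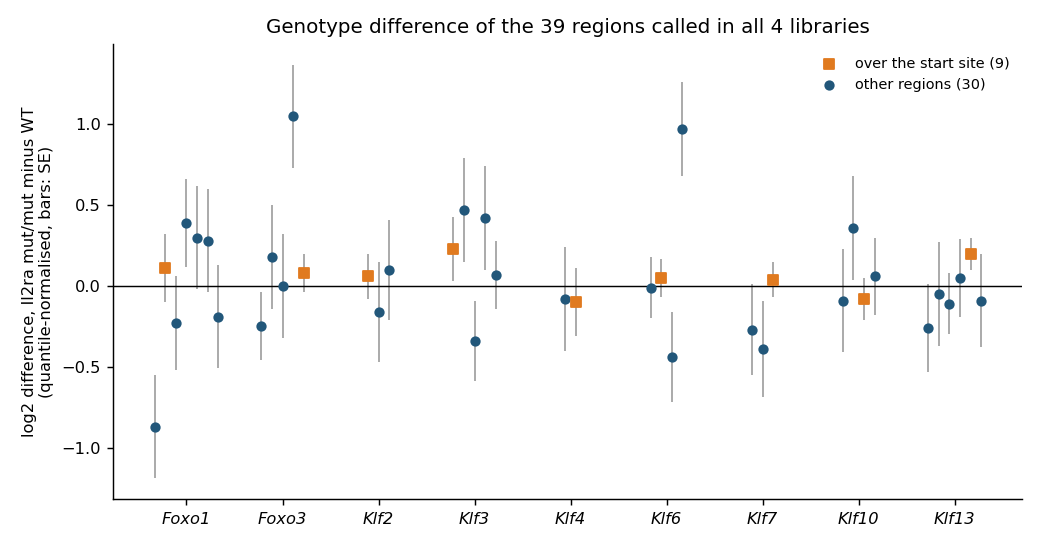
Log2 difference in fold enrichment (Il2ra mut/mut minus WT, quantile-normalised, bars are SE) of the 39 regions called in all 4 libraries, grouped by locus. The 9 promoter squares lie between −0.10 and 0.23, and the 3 regions farthest from 0 are downstream of Klf6 (0.97), in Foxo3 (1.05) and upstream of Foxo1 (−0.87).

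The region with the smallest p-value lay 28.7 kb from the start of Klf6, downstream of the gene (chr13:5889951-5890507), within the long non-coding RNA gene Gm47507 and 2.84 kb from its start site. It had a fold enrichment of 5.57 and 11.6 in WT against 16.1 and 12.6 in Il2ra mut/mut Treg cells, or 10, 22, 35 and 25 reads at the summit. Both Il2ra mut/mut libraries were above both WT libraries, though WT replicate 2 and Il2ra mut/mut replicate 2 differed by only 3 reads. Their backgrounds were 0.979 and 1.06 reads. The normalised log2 difference was 0.97 ± 0.29, a 1.96-fold higher enrichment in Il2ra mut/mut Treg cells (limma adjusted p = 0.0749, and 0.582 without a robust estimate of the spread). It was 0.64 without WT replicate 1 and 1.26 without WT replicate 2. Its summit sequence, shown above, held 2 STAT5 words (TTCTGAGAA and TTCTTAGAA), and 2 of the 39 regions held at least 1 such word against 5.92% of all regions called in all 4 libraries.

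The Foxo3 region next to the promoter (chr10:42274767-42275966) overlaps an exon that includes coding sequence and 5′ UTR. It had 3.55 and 9.09 in WT against 8.97 and 12.1 in Il2ra mut/mut libraries, so that WT replicate 1, with 6 reads, stood apart from the other 3 libraries, with 17 to 24. The log2 difference was 1.05 ± 0.32 (limma adjusted p = 0.0891, and 0.582 without a robust estimate of the spread). It was 0.51 without WT replicate 1 and 1.52 without WT replicate 2.

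Upstream of Foxo1, 5.15 kb before its start site (chr3:52262433-52263189), the direction was the opposite, with 8.61 and 8.59 in WT against 5.38 and 3.89 in Il2ra mut/mut libraries, that is 16 and 16 against 11 and 7 reads. The values of the genotypes did not overlap, and the log2 difference was −0.87 ± 0.32 (limma adjusted p = 0.212). No forkhead, KLF or STAT5 word was found around its summit. At Klf13 the region with the smallest p-value was the promoter, given above. At the remaining 5 loci the region with the smallest p-value had an adjusted p from 0.650 at Klf3 to 0.914 at Klf4. These were an intron region of Klf3 (log2 difference 0.47 ± 0.32, and 0.28 without WT replicate 1), the region at the end of Klf2 (−0.16 ± 0.31), the Klf4 promoter (−0.10 ± 0.21), an intron region of Klf7 (−0.39 ± 0.30) and a region downstream of Klf10 (0.36 ± 0.32).

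The values of the 2 genotypes did not overlap after normalisation at 9 of the 39 regions, 4 with WT higher and 5 with Il2ra mut/mut higher. Over all tested regions 17.5% had WT higher and 18.2% had Il2ra mut/mut higher without overlap, so neither share was larger at the loci than over the genome. Of these 9 regions 3 were at Klf3 and 2 at Klf6, in both cases with both directions among them.

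Presence and absence of peaks gave a second view. At the 9 loci, 6 regions (5.71%) were called in both WT libraries and in neither Il2ra mut/mut library, and 3 (2.86%) the other way round. Over all regions these shares were 2.70% for WT and 3.56% for Il2ra mut/mut. The 6 WT regions were at Foxo1, Foxo3, Klf2 and Klf6, with 1 each, and at Klf7, with 2, and the 3 Il2ra mut/mut regions were at Foxo1, Klf4 and Klf6. All 9 were weak, with 7 to 13 reads at the summit and between the 19.8th and the 79.7th percentile of their lists. The median percentile of their peaks was 66.2. Over all regions of the genome called in both libraries of 1 genotype only, it was 43.8 for WT and 39.1 for Il2ra mut/mut.

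The WT region of Klf2 lies 15.4 kb before its start (chr8:72303404-72303947), 1.31 kb from the start site of Gm10282, and had a fold enrichment of 4.05 and 6.06. It was the one of the 9 whose summit sequence held a forkhead word and also a KLF word. Forkhead words were present at 2.78% and KLF words at 18.1% of all summits. The other 8 had no forkhead, KLF or STAT5 word in the stretch searched, which ran from 100 bases before to 100 bases after the summit.

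In an intron of Foxo1, a region 6.97 kb into the gene (chr3:52275051-52275553) had 5.07 and 7.07 in WT libraries, and its neighbour 6.28 kb into the gene (chr3:52274485-52274747) had 5.38 and 6.32 in Il2ra mut/mut libraries. This pair of weak regions thus lay side by side, each called in the genotype in which the other was not. In Foxo3, an intron region 57.6 kb into the gene (chr10:42218871-42219509) had 5.07 and 7.07 in WT libraries.

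At Klf6, a region in an intron (chr13:5862947-5863785) had 6.59 and 5.56 in WT libraries, and one 11 kb before the start site (chr13:5850265-5850647) had 4.04 and 4.86 in Il2ra mut/mut libraries. At Klf7, the region next to the promoter (chr1:64120404-64120849) had 4.56 and 6.06, and the one 77.6 kb into the gene (chr1:64044547-64044842) had 5.07 and 6.57, all in WT libraries. At Klf4, a region over an exon and intron, 977 bp from the start site (chr4:55530874-55531489), had 5.38 and 4.37 in Il2ra mut/mut libraries. A peak missing from a list lay below that library's calling limit, and at these read counts it cannot be said to be closed.

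**Figure D5:**
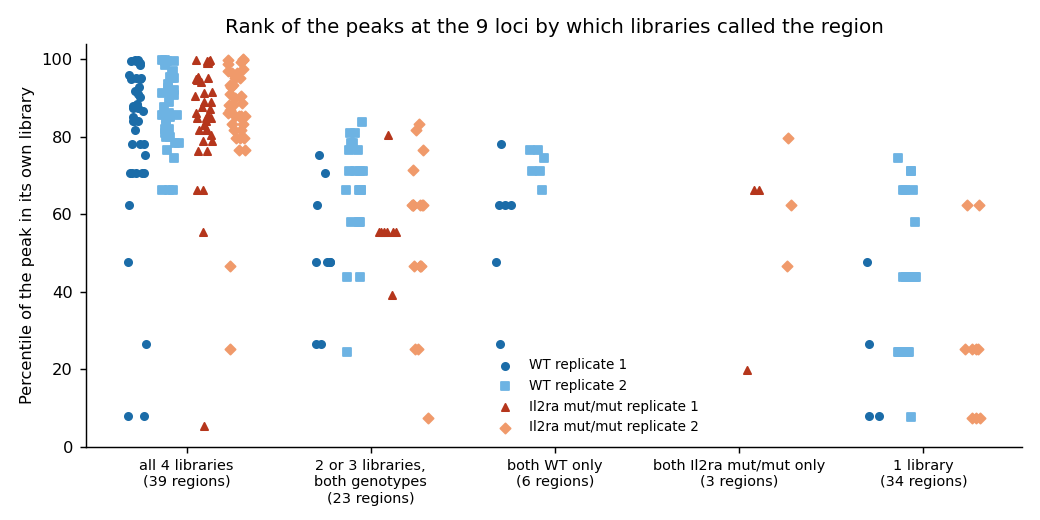
Percentile of each peak within its own library's list (0 to 100, by −log10 p) at the 9 loci, by which libraries called the region. The 18 peaks of the 9 regions called in 1 genotype only have a median percentile of 66.2, between the 26.0 of regions called in 1 library and the 87.4 of regions called in all 4.

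The libraries were unequal in their number of weak peaks. At the loci 66 and 89 peaks were called in the WT replicates, against 59 and 76 in the mutant ones. The means were 77.5 ± 16.3 and 67.5 ± 12.0 (SD, n = 2), a difference that an exact permutation test could not separate from the spread (two-sided p = 0.667, where 0.333 is the smallest that 2 against 2 allows). As a share of the list the loci had 0.0586% and 0.0702% of the WT peaks and 0.0481% and 0.0532% of the Il2ra mut/mut peaks (exact permutation p = 0.333). Of the 34 regions called in 1 library, 21 (61.8%) came from WT replicate 2 and 0 from Il2ra mut/mut replicate 1, while over the genome these libraries gave 24.4% and 23.7% of such regions. Of the 11 regions called in 3 libraries, 7 were missing from Il2ra mut/mut replicate 1. The weakest peak of that library had 6 reads against 5 in the others, and its part in the calls was not tested.

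The number of libraries in which a region was called moved with its height. Regions called in all 4 libraries had a median of 21 reads at the summit and those called in 1 library 7 reads, and their median widths were 753 and 218 bp. The 39 regions were about as wide as the 760 bp median of all regions of the genome called in all 4 libraries.

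The sequence words were searched in the 100 bases on either side of each summit, and no match says only that these letters are absent there. Of the 105 regions, 4 (3.81%) held a forkhead word, 30 (28.6%) a KLF word and 4 (3.81%) a STAT5 word, against 2.78%, 18.1% and 6.18% of all regions. Among the 39 regions called in all 4 libraries, 15 (38.5%) held a KLF word and 1 (2.56%), the Klf7 promoter, a forkhead word, against 33.8% and 2.73% of such regions in the genome. In the 250 bases before the start site, each of the 8 promoters in the RefSeq table held at least 1 KLF word, from 1 at Foxo1 to 10 at Klf3, while 45.9% of all 32851 promoters did. None of the 8 held a forkhead or a STAT5 word there, which 3.17% and 7.02% of all promoters did.

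The other members of both families were looked at in the same way. Of 12 other FOXO and KLF genes, Foxo4, Foxo6, Klf5, Klf8, Klf9, Klf11 and Klf16 had a start site in a region called in all 4 libraries. Klf12 had one called in 3, while Klf1, Klf14, Klf15 and Klf17 had none. The tallest of these promoters was that of Klf11, a relative of Klf10, with a fold enrichment of 49.6 and 71.7 in WT against 49.8 and 55.4 in Il2ra mut/mut libraries. Of their 111 regions 22 (19.8%) were called in all 4 libraries, 0 in both WT libraries only and 2 in both Il2ra mut/mut libraries only. Over all regions of the genome these shares were 14.1%, 2.70% and 3.56%. Within 20 kb of any protein-coding gene, the first was 19.1%. None of the 22 passed limma at an adjusted p of 0.05. An unadjusted p under 0.05 was found for 3 of them and for 10.4% of the tested regions of the genome.

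Among 9 genes that FOXO1 or KLF2 is known to act on in lymphocytes (S1pr1, Ccr7, Il7r, Pik3ip1, Cdkn1b, Bcl2l11, Sesn1, Sesn3 and Itgb7), every start site was open in all 4 libraries. Of their 115 regions 56 (48.7%) were called in all 4 libraries, 6 in both WT libraries only and 3 in both Il2ra mut/mut libraries only. Over all regions of the genome these shares were 14.1%, 2.70% and 3.56% in the same order. Within 20 kb of any protein-coding gene, 19.1% were called in all 4 libraries. Of the 56 regions 2 passed limma, both lower in Il2ra mut/mut Treg cells, and 0 passed as higher, where 0.427% passed as lower and 0.304% as higher over the genome. The gene list was chosen with earlier results of these data known, so setting it beside the genome is no test of the list. A region in the body of Bcl2l11, which encodes the pro-apoptotic protein BIM (chr2:128152462-128154052), had a fold enrichment of 13.2 and 26.3 in WT against 6.73 and 7.29 in Il2ra mut/mut libraries, a log2 difference of −1.35 ± 0.28 (limma adjusted p = 0.00129). A region 15.4 kb upstream of Ccr7, the homing receptor for LNs (chr11:99170491-99171419), had 26.3 and 37.9 in WT against 19.7 and 15.6 in Il2ra mut/mut libraries, a log2 difference of −0.81 ± 0.21 (limma adjusted p = 0.0201). Neither passed without a robust estimate of the spread (limma adjusted p = 0.582 for each), without the mean-variance trend, without normalisation or on the normal score of the percentile, and the Ccr7 region did not pass with the replicate block (adjusted p = 0.118).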

How the data were processed

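ATAC-seq peak lists of 2 WT and 2 Il2ra mut/mut LN Treg libraries were analysed. Per the labels and the methods of the study, the authors trimmed reads (Trim Galore 0.3.7), mapped them to mm10 (BWA mem 0.7.13, SAMtools 0.1.19), removed duplicates (Picard 1.92) and mitochondrial reads, shifted read 1 for the Tn5 offset and called narrow peaks per library (MACS2 2.1.0), with no pooling. The lists used here are those before any reproducibility filter.

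The deposited values are a fold ratio over background, a −log10 p-value, a −log10 q-value and an integer score. The score is 10 times the −log10 q-value and was not used for any result. The ratio contains a pseudocount of 1 read, and its steps gave whole reads in 100% of the peaks (within 0.05 reads). Neither input DNA nor read totals were used, so the total depth is unknown and the number of libraries limits the precision.

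Peaks overlapping by 1 bp were merged, and each region took the highest peak of each library. Genes, start sites and exons came from GENCODE vM21 (basic). Regions called in all 4 libraries were compared with limma 3.58.1 (R 4.3.3, Python 3.11.15): log2 ratio, quantile normalisation, mean-variance trend and a robust prior for the spread, two-sided, Benjamini-Hochberg over all 38426 regions, threshold 0.05. The robust prior was not in the original plan. It was added after tests on simulated data, made of whole read numbers, where known changes were not recovered without it. All simulated regions had the same dispersion, so these tests cannot show how the prior performs where regions differ in their spread. Counts of peaks were compared with an exact permutation test. The labels do not say which animals gave which library, so the spread is that between libraries. In limma this spread was largely shared across regions. The Foxo3 region next to the promoter and the second Klf3 promoter both had an SE of 0.32, although the WT libraries lay farther apart at the former. SE, intervals and p-values of limma thus do not measure the spread at the named region alone.

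Named regions were, per gene, the strongest over a start site and the strongest over 1 kb from any start site (both by the lowest percentile over the 4 libraries) and the one with the smallest p-value, plus all regions called in both libraries of 1 genotype only. The genes, gene lists and rules were chosen with earlier results of these data known. Of the genes that FOXO1 or KLF2 acts on, 1 on the planned list is not reported here, and the counts leave it out. Alternatives changed the window, the peaks kept, the merging, the scaling, the fit and the libraries included.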

Additional observations from a re-analysis of the deposited data

How the results depend on the processing

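None of the regions at the 9 loci passed an adjusted p of 0.05 under any of the 16 alternatives of the limma fit (0 in each, smallest adjusted p 0.0717), although the number that passed over the genome varied between 0 and 291, against 281 as reported. It was 276 with median scaling, 12 without normalisation, 27 with the normal score of the percentile, and 0 without the trend, without the robust prior, with regions called in at least 2 libraries, and without any 1 of the libraries. Where 1 library was left out, the lone library was assumed to vary like the others. In the fit of regions called in at least 2 libraries, values missing from a list were filled in. It covered 71 regions at the loci, of which 11 had an unadjusted limma p under 0.05, against 7044 of 105325 over the genome. How far the filled-in values shaped these p-values was not tested. With the replicate block 0 regions at the loci and 52 over the genome passed. The labels share replicate numbers between genotypes and do not say whether libraries of the same number were prepared together. Their deviations from the genotype means had a correlation of 0.01 across 38426 regions. These values were quantile-normalised, which removes a shift of a whole library, so the correlation cannot decide whether the libraries were paired. The block changed no call at the loci.

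The number of regions, and of regions called in all 4 libraries, stayed within 1.5 times the reported value in every alternative. Leaving out 1 library gave 89 to 105 regions, 40 to 46 called in every remaining library, 7 to 27 called in WT only, 3 to 12 called in Il2ra mut/mut only, and 23 to 26 whose genotypes did not overlap. A rule that needs fewer libraries is met more often by its construction. The 27 WT regions came without WT replicate 1, which leaves WT replicate 2 alone for that genotype. The difference in peaks per library, −10.0 as reported, was −21.5 to 1.5 when 1 library was left out, and it turned to 1.5 without WT replicate 2.

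The 3 regions with the smallest p-values kept their direction under the alternatives that include them. The limma adjusted p of the Klf6 and Foxo3 regions was 0.119 and 0.156 with median scaling and 0.233 and 0.215 with the replicate block. It was 0.247 and 0.436 with the normal score, and 0.304 and 0.349 without the trend. Without normalisation it was 0.998 for each. Changing the peaks kept or the merging gave 0.0717 to 0.0743 for the Klf6 region. Other differences turned when 1 library was left out: the region at the end of Klf2 (−0.46 to 0.13, the latter without Il2ra mut/mut replicate 1), the Klf4 promoter (−0.34 to 0.14, above 0 without WT replicate 1 or Il2ra mut/mut replicate 2, and 0.00 as a normal score), the Klf7 intron region (−0.82 to 0.10, the latter without Il2ra mut/mut replicate 1) and the Klf10 region (−0.10 to 0.71, the former without WT replicate 1). The cause was not tested. The Bcl2l11 and Ccr7 differences kept their direction under each scaling and fit tried. With the replicate block the adjusted p was 0.0421 for Bcl2l11 and 0.118 for Ccr7, with median scaling 0.00101 and 0.0270, without normalisation 0.325 and 0.998, without the trend 0.136 and 0.309, and with the normal score of the percentile 0.157 and 0.320. With 7 to 13 reads at the summit, a region called in 1 genotype only is close to the calling limit of 5 or 6 reads, and a smaller share of open chromatin was not detectable in the other genotype.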
